A study of Mus musculus with 281 samples.

Results

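Annexins are soluble proteins that bind phospholipid membranes when calcium rises, through a conserved core built of repeated domains, and differ in their N-terminal tails. Annexin A1 is known as a glucocorticoid-regulated brake on inflammation that acts through formyl peptide receptors once released from a cell. Annexins A2, A5 and A6 are known for binding S100A10 and actin, for covering exposed phosphatidylserine, and for membrane repair and endosome traffic. Here 8 annexin genes, named Anxa1, Anxa2, Anxa3, Anxa4, Anxa5, Anxa6, Anxa7 and Anxa11, were taken by name from the 47752 genes of the table, to ask whether the lower Anxa1 of mutant cells extends to its family. The other 4 annexin genes of the table were Anxa8, Anxa9, Anxa10 and Anxa13.

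The study sequenced single cells of the stria vascularis (SV), the epithelium of the cochlear lateral wall that makes endolymph and its electrical potential, from male 129S6 mice. Collagenase-dissociated cells were picked one at a time with a glass micropipette and read by Smart-Seq2, a full-length method without molecular identifiers. Wild-type (WT, Slc26a4+/+) cells came from mice of 22 to 42 postnatal days, 40 Slc26a4+/- cells from mice of 26 to 33 days and 69 Slc26a4-/- cells from mice of 24 to 44 days, and 94 WT cells fell in a named cell group. Slc26a4 encodes pendrin, the anion exchanger of spindle cells (SC) and root cells (RC), and its loss causes deafness with an enlarged vestibular aqueduct. All 3 genotypes shared strain, sex and tissue, and the Slc26a4-/- allele is a whole-body loss rather than one limited to a cell type. No label tied a cell to a mouse, so each genotype counted as 1 sample, and differences between genotypes are given without an error or a p-value from cells.

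The median cell held 1166720.5 estimated counts in WT, 2221967 in Slc26a4+/- and 1226474 in Slc26a4-/-, and 20 WT cells held under 100000. Cells came in 4 sequencing batches and in 23, 4 and 10 collection days, a day here being cells that share a batch, a collection number and an age. Clustering without the annexin genes gave 33 SC-like, 37 RC-like, 87 intermediate cell (IMC)-like and 21 marginal cell (MC)-like cells, each named from markers. A further 86 and 17 cells stayed unnamed. In the first of these clusters 74.4% of cells scored highest for IMC markers, but its leading genes (Slc4a1, Hbb-bs, Mpo, Elane) were those of red blood cells and neutrophils. The 7 erythroid genes had a mean sum of 14178 CPM and a median of 97.8 CPM over its WT cells, and its IMC-scoring cells are not in the IMC-like group. The second was led by Crhbp, Slc26a7 and Vmo1. Anxa1 was the second leading gene of the SC-like cluster although it took no part in the clustering. Slc26a4 RNA, the check on the labels, averaged 912 counts per 1000000 counts of the cell (CPM) in WT and 102.5 CPM in Slc26a4-/- SC-like cells, a log2 difference of -3.14, and of -1.04 within batch 2. In RC-like cells it averaged 989 CPM in WT and 1188 CPM in the cells labelled Slc26a4-/-, with log2 differences of -3.33 and 1.59 within batches 2 and 4. The RNA level thus did not mark the genotype in RC-like cells, and the genotypes are used as labelled.

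In WT cells the SC-like group was the annexin-rich one. The 8 genes together took 1.99% of all counts in SC-like cells, 0.232% in RC-like cells, 0.156% in MC-like cells and 0.128% in IMC-like cells. Of the 8, 7 had their highest mean in SC-like cells, and Anxa11 in IMC-like cells. Compared per transcript length, as mean transcripts per 1000000 (TPM), the level in SC-like cells was 9173 for Anxa5, 5373 for Anxa1 and 3202 for Anxa2. The next were Anxa6 at 585 TPM, Anxa4 at 200.9, Anxa3 at 141.3, Anxa7 at 130.2 and Anxa11 at 29.5.

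**Figure D1:**
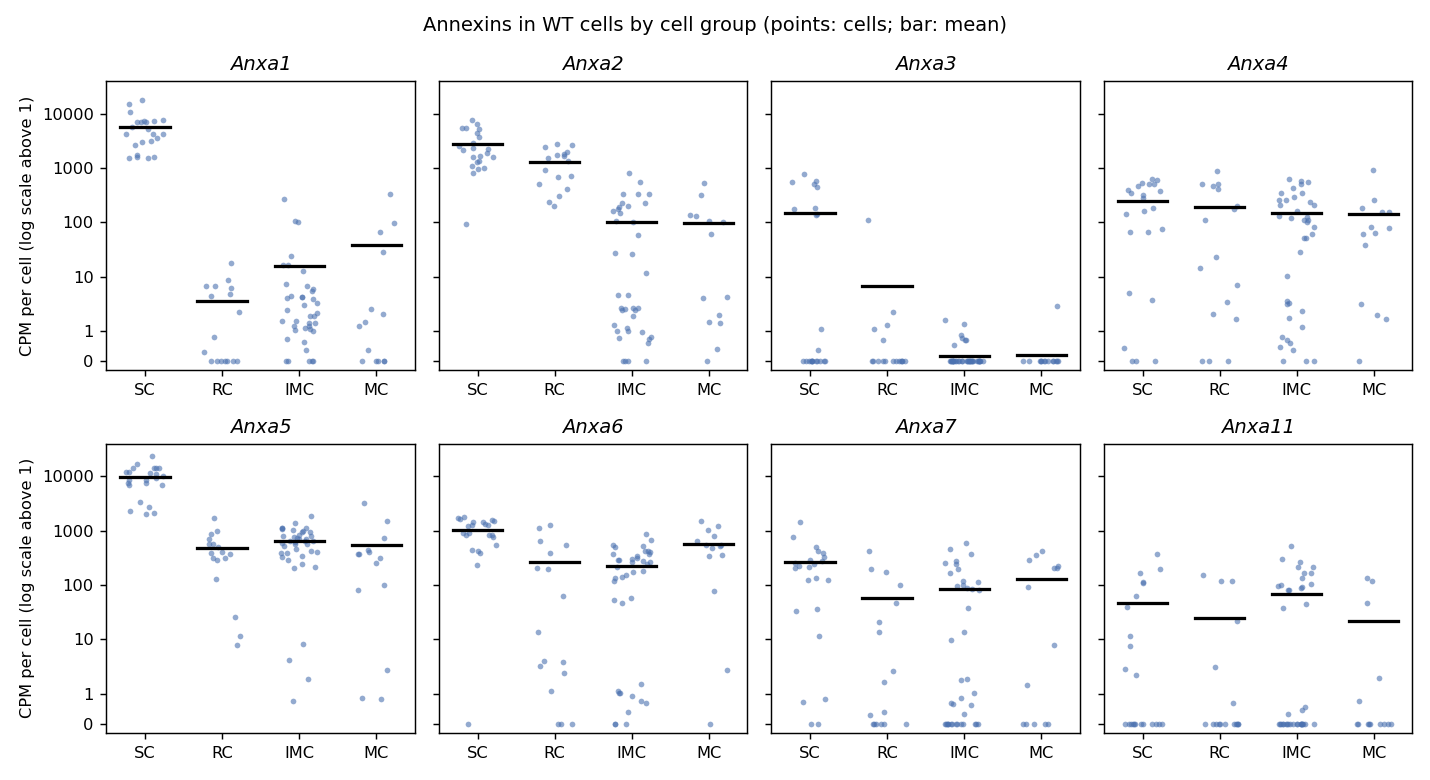
CPM of each of the 8 annexin genes in every WT cell (points) of the 4 named groups, with bars at the mean, on a scale that is logarithmic above 1. Mean Anxa1 stood at 5714 CPM in SC-like cells and at 37.6 CPM or less elsewhere, while mean Anxa4 lay between 142.4 and 246.1 CPM in all 4 groups.

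Anxa1 was close to a private gene of the SC-like group. Its WT level there ran from 1507 through a median of 4315 to 17531 CPM over 23 cells, with a mean of 5714 CPM. The mean was 37.6 CPM in 14 MC-like, 15.6 CPM in 40 IMC-like and 3.50 CPM in 17 RC-like cells. All 23 SC-like cells were above every MC-like cell, the next group, and the means differed 151.98-fold. At least 1 Anxa1 count was found in 23 of 23 SC-like cells (100%, exact 95% interval 85.2 to 100%) and in 10 of 17 RC-like cells (58.8%, 32.9 to 81.6). These intervals, like all others here, cover counting error only. The median depths of those groups were 1820555 and 994100 counts, and at 10 or more counts the numbers were 22 of 23 and 1 of 17 cells. RC-like and SC-like cells are both pendrin-expressing, and no RC-like WT cell was above 18.1 CPM of Anxa1.

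Anxa5, which binds phosphatidylserine, was also highest in SC-like cells. It ran from 2036 through a median of 9183 to 24143 CPM in SC-like WT cells and averaged 9706 CPM. The next group, IMC-like, averaged 637 CPM, MC-like 556 CPM and RC-like 483 CPM. All 23 SC-like cells were again above every IMC-like cell, with means 15.2-fold apart. Anxa5 thus differed from Anxa1 in its level in the other groups, where no mean was below 483 CPM.

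Anxa2, the partner of S100A10, was shared by both pendrin types. It averaged 2790 CPM in SC-like and 1286 CPM in RC-like cells, a 2.17-fold difference, and 101.96 CPM in IMC-like and 99.2 CPM in MC-like cells. Only 8 of 23 SC-like cells were above every RC-like cell, and the log2 difference of 1.12 was smaller than the SD of 1.53 over 12 WT collection days of SC-like cells. SC-like and RC-like cells were therefore not separated for Anxa2 beyond the spread between days. Most of these days held a single SC-like cell, so that spread includes the spread between cells.

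The remaining genes were lower and noisier. Anxa3 averaged 151.2 CPM in SC-like cells against 6.69 CPM in the next group, RC-like, but 11 of 23 SC-like cells held any count and the median cell was at 0. Anxa6, the annexin with a doubled core, averaged 1014 CPM in SC-like, 574 CPM in MC-like, 264.6 CPM in RC-like and 225.2 CPM in IMC-like cells. Anxa7, known for membrane fusion in secretion, averaged 264.2 CPM in SC-like and 128.5 CPM in MC-like cells. Anxa4, an annexin of epithelia, averaged 246.1 CPM in SC-like, 194.1 CPM in RC-like, 150.1 CPM in IMC-like and 142.4 CPM in MC-like cells, the flattest order of the 8. Anxa11 averaged 68.3 CPM in IMC-like and 47.3 CPM in SC-like cells. For Anxa4, Anxa6, Anxa7 and Anxa11 the first and second groups differed by 0.34, 0.82, 1.03 and 0.52 on the log2 scale, less than the SD over WT collection days of the highest group, which was 2.88, 2.96, 2.29 and 2.79.

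Promoter sequence is shown for Anxa1, Anxa2 and Anxa5, the 3 most abundant members, because they had 3 different patterns: limited to SC-like cells, shared by SC-like and RC-like cells, and present in all groups. RefSeq start sites were matched for 6 of the 8 members (GRCm38.p6), and each run below is the 250 bases before the RefSeq start, 5′ to 3′ on the gene's strand. The gene spans of the next paragraph are from GENCODE and begin further upstream for these genes. The Anxa1 run therefore lies inside its span, and the Anxa2 and Anxa5 runs overlap theirs. Capitals mark motifs, each searched on both strands. They were the TATA box (TATAAA), the GC box (GGGCGG), the CCAAT box, the AP-1 site (TGACTCA) and the core of a glucocorticoid receptor site (AGAACA).
Anxa1, chr19:20390672-20390921, minus strand: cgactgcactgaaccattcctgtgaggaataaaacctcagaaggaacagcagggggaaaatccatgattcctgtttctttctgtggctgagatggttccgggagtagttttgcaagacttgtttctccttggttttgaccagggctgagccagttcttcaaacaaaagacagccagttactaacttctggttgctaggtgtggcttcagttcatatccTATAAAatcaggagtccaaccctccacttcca
Anxa2, chr9:69453433-69453682, plus strand: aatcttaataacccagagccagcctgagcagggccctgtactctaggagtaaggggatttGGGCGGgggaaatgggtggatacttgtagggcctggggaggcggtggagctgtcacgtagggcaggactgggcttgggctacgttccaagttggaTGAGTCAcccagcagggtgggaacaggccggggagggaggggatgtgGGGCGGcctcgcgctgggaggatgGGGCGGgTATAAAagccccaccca
Anxa5, chr3:36475888-36476137, minus strand: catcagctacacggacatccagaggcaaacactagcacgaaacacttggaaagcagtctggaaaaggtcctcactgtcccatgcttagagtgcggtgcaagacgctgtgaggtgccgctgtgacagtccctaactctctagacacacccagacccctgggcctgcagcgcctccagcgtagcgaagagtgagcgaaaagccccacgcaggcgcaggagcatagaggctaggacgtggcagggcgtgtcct
The Anxa1 promoter held TATAAA with its first base 32 bases before the start, none of the other motifs, and 46% GC. The Anxa2 promoter held 3 GC boxes, TATAAA 17 bases before the start, the AP-1 letters on the reverse strand and 62.4% GC. The Anxa5 promoter held none of the 5 and had 58.8% GC. Among 32851 mouse promoters of the same length, TATAAA occurred in 12.4%, the GC box in 32.7%, CCAAT in 33.8%, TGACTCA in 4.46% and AGAACA in 16.1%, and the median GC was 52.4%.

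The annexin genes lie apart on the genome. In GRCm38 coordinates, Anxa1 spans chr19:20373428-20390944 on the minus strand, Anxa2 chr9:69453620-69491795 on the plus strand and Anxa5 chr3:36448923-36475894 on the minus strand. Anxa3 spans chr5:96793339-96845966 (plus), Anxa4 chr6:86736840-86793584 (minus) and Anxa6 chr11:54979108-55033445 (minus). Anxa7 (chr14:20455260-20480133, minus) and Anxa11 (chr14:25842156-25886804, plus) share a chromosome. All 8 are annotated as protein-coding. In WT SC-like cells the leading transcript carried a large part of the TPM of each gene, with 95.2% for Anxa1, 89.6% for Anxa2, 86.6% for Anxa5 and 75.3% for Anxa4. A further 12.7% of Anxa5 TPM was assigned to a retained-intron transcript.

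Anxa6 was split between a longer form (58.4%) and a shorter form (32.8%) that differ by a cassette exon. That exon, number 21 of the 26 of the longer form, lies at chr11:54987051-54987068 on the minus strand of GRCm38 and is 18 bases long, a whole number of codons. It is shown with 6 bases of the exons on either side, in capitals:
Anxa6 cassette: gcccagGTGGCTGCTGAGATCTTGgaaata
Transcripts with the cassette made up 64.04% of the TPM of these 2 forms in WT SC-like cells and 47.002% in Slc26a4-/- SC-like cells. In IMC-like cells the share was 69.01% in WT, 75.3% in Slc26a4+/- and 55.9% in Slc26a4-/-. In RC-like cells it was 66.5% in WT and 61.5% in Slc26a4-/-. Single cells spread over the whole range: among 21 WT SC-like cells with at least 10 counts the share ran from 0 to 100% with a median of 66.2%, so the differences between genotypes were smaller than the spread between cells.

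The main question was whether the lower Anxa1 of Slc26a4-/- cells extended to other annexins. Among SC-like cells, 8 were Slc26a4-/-, 2 were Slc26a4+/- and 23 were WT. Anxa1 in the 3 Slc26a4-/- cells of 24 days was 1188, 1536 and 596 CPM. In the 5 cells of 29 days it was 1060, 2593, 516, 191.3 and 1954 CPM. The mean of 1204 CPM was 4.74-fold below the WT mean (log2 difference -2.25 on the scale of mean CPM plus 1), and 5 of the 8 cells were below every WT cell. Both collection days were low, at 1106.7 and 1263 CPM, against a lowest WT day of 1507 CPM. The 2 Slc26a4+/- cells, at 5008 and 4751 CPM, lay within the WT range (log2 difference -0.23).

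**Figure D2:**
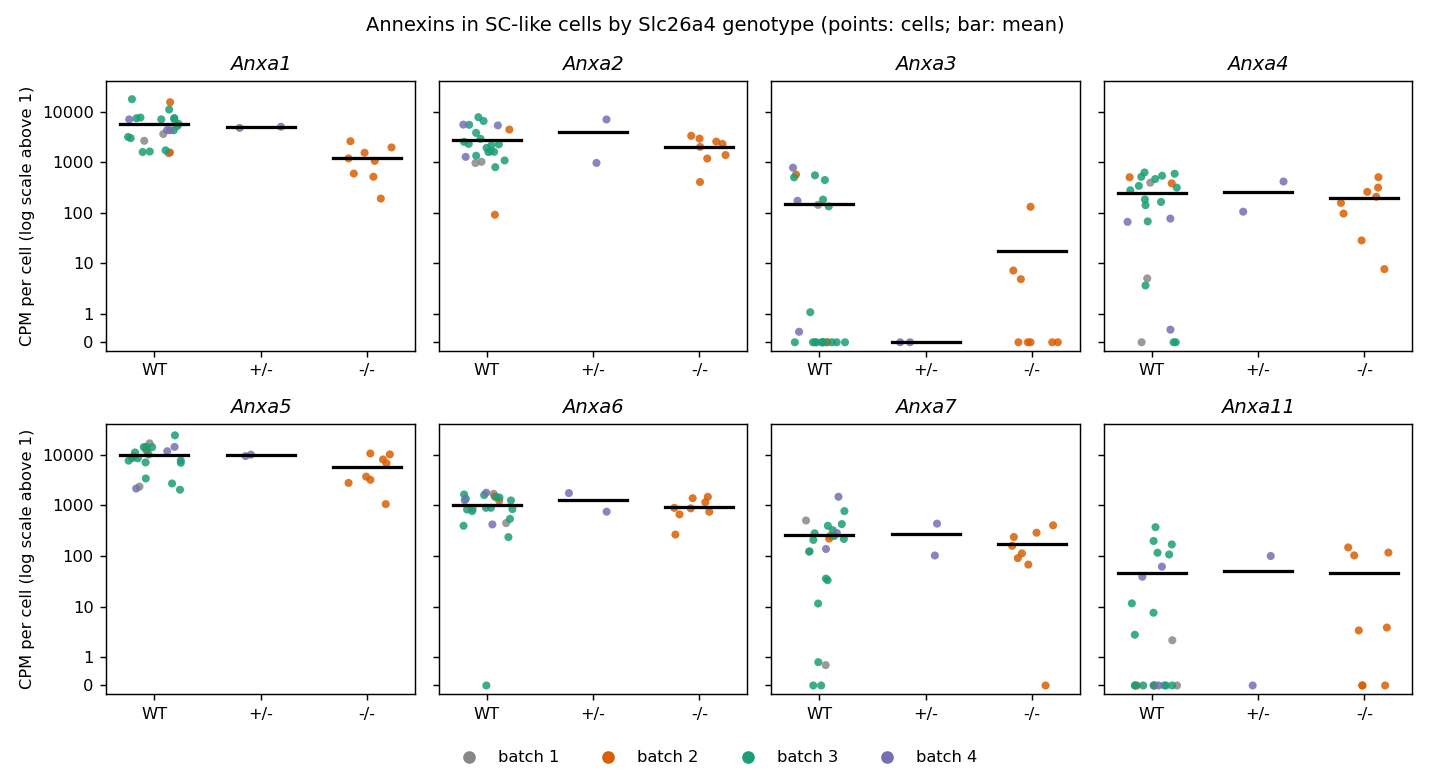
CPM of each annexin gene in every SC-like cell (points, coloured by batch) by genotype, with bars at the mean, on a scale that is logarithmic above 1. For Anxa1 the 8 Slc26a4-/- cells lay between 191.3 and 2593 CPM and the 23 WT cells between 1507 and 17531 CPM, whereas for Anxa6 the genotypes overlapped.

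No other abundant annexin differed to that extent. Anxa5 averaged 5782 CPM in Slc26a4-/- against 9706 CPM in WT cells (log2 difference -0.75), with 1 of 8 cells below every WT cell. Its Slc26a4-/- cells ran from 1060 through a median of 5220 to 10588 CPM, inside most of the WT range. Anxa2 averaged 2007 CPM (406 to 3317) against 2790 CPM (-0.48). Anxa7 averaged 170.2 against 264.2 CPM (-0.63) and Anxa4 averaged 197.03 against 246.1 CPM (-0.32). Anxa6 (932 against 1014 CPM, -0.12) and Anxa11 (46.9 against 47.3 CPM, -0.01) were nearly level. For scale, the SD of log2 day means among WT SC-like cells was 0.99 for Anxa1 and 0.96 for Anxa5. The Anxa1 difference was larger than this SD and the Anxa5 difference was not. Most of these days held a single cell, so the SD also holds the spread between single cells. The differences in Anxa2, Anxa4, Anxa6, Anxa7 and Anxa3 lay within 1 SD of their WT days, an SD of 4.08 for Anxa3. Within batch 2 the differences were -0.16 for Anxa2, -1.17 for Anxa4, -0.89 for Anxa5, -0.55 for Anxa6 and -0.47 for Anxa7, and Anxa11 was higher in Slc26a4-/- cells there, at 5.58, against 2 WT cells.

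Anxa3 had the lowest ratio, 17.95 against 151.2 CPM (-3.01), but rested on few cells. It had at least 1 count in 3 of 8 Slc26a4-/- cells and 11 of 23 WT cells, and the median cell of both genotypes was at 0. In both Slc26a4+/- cells Anxa3 was at 0 counts, as it was in 12 of 23 WT cells, so no fold is given.

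By count, 2 of the 8 annexins (Anxa1 and Anxa3) were at least 2-fold lower in Slc26a4-/- SC-like cells and 0 were at least 2-fold higher. Among the 9992 genes with a mean of at least 10 CPM in either genotype, 35% were at least 2-fold lower and 22.2% at least 2-fold higher. Counts out of 8 genes are too small to place the annexins above or below that background. All 8 were on the lower side, as were 57.2% of all genes, and the median log2 difference was -0.55 for the annexins and -0.29 for all genes. In Slc26a4+/- SC-like cells 1 of 8 was at least 2-fold lower (Anxa3) and 0 higher, against 43.5% and 21% of genes, with medians of 0.05 for annexins and -0.52 for genes. The annexin share of all counts was 1.99% in WT, 2.04% in Slc26a4+/- and 1.04% in Slc26a4-/- SC-like cells. Anxa1 made up 28.7%, 23.9% and 11.6% of that share.

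**Figure D3:**
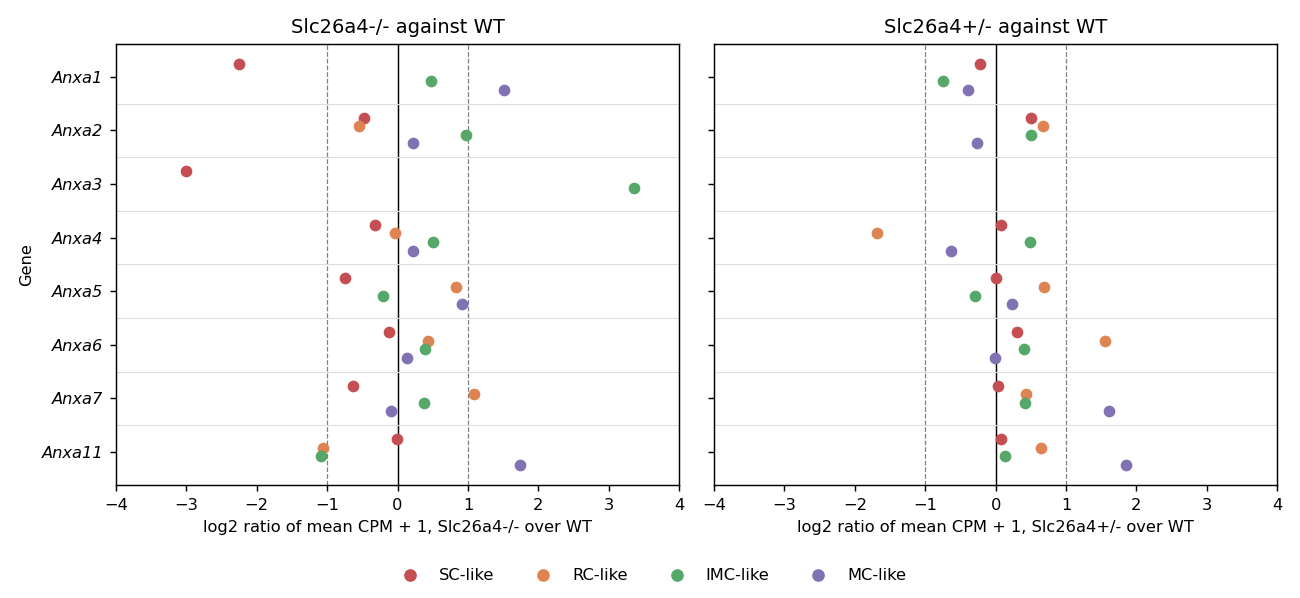
Log2 difference of mean CPM plus 1 against WT for each annexin gene in the 4 named groups, for Slc26a4-/- (left) and Slc26a4+/- cells (right), with dashed lines at 2-fold. Genes under 10 CPM in both genotypes or at 0 in one of them are not drawn, and the point for Anxa1 in Slc26a4-/- SC-like cells is at -2.25.

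Several measures moved with the SC-like comparison. All 8 Slc26a4-/- cells came from batch 2, which held only 2 WT SC-like cells, at 1555 and 15276 CPM of Anxa1. Within that batch the log2 difference was -2.80, and taking collection days as samples it was -2.04 with an exact permutation p = 0.333, the smallest that 2 days against 2 days (6 arrangements) allow, and an adjusted p over all genes of 0.789. Batch and genotype cannot otherwise be told apart in these cells. The median depth was 524052 counts in Slc26a4-/- and 1820555 counts in WT SC-like cells. Wfdc18, an SC marker, averaged 686 CPM against 20200 CPM, and Krt8, a simple-epithelium keratin, 1876 CPM against 4385 CPM. Of the 10 SC markers 2 were higher, Kif19a (3707 against 1963 CPM) and St14 (828 against 730 CPM), and P2rx2 was near level (2140 against 2229 CPM). The 9 SC markers other than Wfdc18 summed to 12607 CPM in Slc26a4-/- (5338 to 25130) and 16440 CPM in WT cells (4807 to 36202), and RC markers to 4223 and 4070 CPM. Relative to that SC marker sum the Anxa1 log2 difference was -1.84. Of 10 MC markers, 8 reached 10 CPM in Slc26a4-/- and 9 in WT SC-like cells, and their sum was 9602 CPM (2578 to 18152) against 5144 CPM (847 to 17672). Of 5 endothelial genes 2 reached 10 CPM in both genotypes, with sums of 510 against 100.8 CPM. The 6 macrophage genes summed to 90.7 against 11.4 CPM (3 and 1 of them at 10 CPM or more) and the 5 fibrocyte genes to 326 against 116.5 CPM. The part of batch, depth and these markers in the Anxa1 difference was otherwise not tested.

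Partners of the annexins were counted as lists. Of 7 S100 partners and scaffolds, 6 reached 10 CPM in SC-like cells and 3 of these were at least 2-fold lower in Slc26a4-/- cells: S100a10, the annexin A2 ligand (38.4 against 170 CPM, log2 difference -2.12), S100a11, the annexin A1 ligand (38.9 against 230 CPM, -2.54), and S100a6 (62.9 against 127.9 CPM, -1.01). None was higher, beside 35% of all genes lower and 22.2% higher. Within batch 2, S100a10 kept its sign at -1.21, but S100a11 and S100a6 were higher in Slc26a4-/- cells, at 2.91 and 5.70, so the direction of those 2 depended on the WT cells of other batches. In WT cells S100a6 averaged 127.9 CPM in the SC-like group, 0 CPM in the RC-like, 0.162 CPM in the IMC-like and 0.119 CPM in the MC-like group. Like Anxa1, it was highest in the SC-like group.

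Other lists had members on both sides, to be read beside the same 35% and 22.2% of all genes. Of the plasminogen genes only Plat, tissue plasminogen activator, reached 10 CPM, at 339 against 890 CPM (-1.39). Of 10 vesicle genes 2 were at least 2-fold lower (Tsg101 at -1.17 and Flot1 at -1.39) and 1 was higher (Rab27a at 2.42). Of 4 membrane repair genes measured, Capn2 was at -1.56 and Capn1 at 1.15, both being calpain proteases that can cleave annexins. Of 3 measured lipid mediator and glucocorticoid response genes, 1 was lower, Tsc22d3, which encodes a glucocorticoid-induced leucine zipper protein, at -2.59 (10.7 against 69.4 CPM). In the 2 Slc26a4+/- SC-like cells, with Anxa1 within the WT range, Tsc22d3 averaged 5.35 CPM, and all 3 genes of that list (with Nr3c1 and Per1) were at least 2-fold lower than in WT, beside 43.5% of all genes. The 4 formyl peptide receptor genes, receptors for annexin A1, stayed under 10 CPM in all 4 named groups, where the highest WT mean was 0.0440 CPM.

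In RC-like cells Anxa1 was near its floor in all genotypes, at 3.50 CPM in 17 WT, 0.364 CPM in 6 Slc26a4+/- and 3.84 CPM in 14 Slc26a4-/- cells, so there was no level from which to be lower. Of the 6 annexins above 10 CPM, 1 was at least 2-fold lower in Slc26a4-/- cells (Anxa11, 11.4 against 24.6 CPM) and 1 at least 2-fold higher (Anxa7, 125.02 against 58.3 CPM), beside 28.2% and 21.8% of 10147 genes. Both changed sign between batches 2 and 4, from 3.99 to -2.41 for Anxa11 and from -1.51 to 1.08 for Anxa7, with 1 WT cell in batch 2. Anxa5 averaged 864 against 483 CPM (log2 difference 0.84), with 1 Slc26a4-/- cell at 6248 CPM. Anxa2 averaged 883 against 1286 CPM (-0.54), with 4 of 14 cells below every WT cell, but within batches 2 and 4 its difference was 0.64 and 0.02. Anxa4 (-0.04) and Anxa6 (0.43) differed less.

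In Slc26a4+/- RC-like cells Anxa6 averaged 778 CPM against 264.6 CPM in WT (log2 difference 1.55), and Anxa4 59.97 against 194.1 CPM (-1.68). These were 1 of 6 annexins at least 2-fold higher and 1 of 6 lower, beside 24.8% and 32.5% of 10160 genes. For Anxa6 each of the 4 Slc26a4+/- days (466.1 to 1803 CPM) was above each of the 3 WT days of batch 4 (3.94 to 400 CPM). The exact permutation p over these days was 0.0286, the smallest that 35 arrangements allow, and the p adjusted over all genes was 1.0. By the same test 1.81% of genes were lower and 0.748% higher at an unadjusted p under 0.05.

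Pooled as pendrin cells, as the study grouped them, SC-like and RC-like cells gave a larger Anxa1 difference than SC-like cells alone. The mean was 3287 CPM in 40 WT, 1220 CPM in 8 Slc26a4+/- and 440 CPM in 22 Slc26a4-/- cells, a log2 difference of -2.90 for Slc26a4-/- and -1.43 for Slc26a4+/-. The SC-like share of these cells was 57.5% in WT (exact 95% interval 40.9 to 72.96), 25% in Slc26a4+/- (3.19 to 65.1) and 36.4% in Slc26a4-/- (17.2 to 59.3), and the intervals overlapped. With SC-like and RC-like differences given equal weight, the log2 difference for Slc26a4-/- was -1.07, the mean of -2.25 in SC-like cells and of 0.11 in RC-like cells, where Anxa1 is near its floor. In batch 4, where 0 of 7 Slc26a4-/- (which allows a share of up to 40.96% by the exact interval) and 3 of 9 WT pendrin cells were SC-like, the Anxa1 difference was -10.54. In batch 2, where 8 of 15 Slc26a4-/- and 2 of 3 WT pendrin cells were SC-like, the pooled difference was -3.12, beside -2.80 in SC-like cells alone. The part of the mix of the 2 cell types in the pooled value was otherwise not tested. Over collection days of batches 2 and 4, Anxa1 had an exact permutation p of 0.0317 over 315 arrangements and an adjusted p of 0.863 over all genes, where 0.739% of genes were lower and 4.13% higher at an unadjusted p under 0.05.

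Of the 8 annexins in pooled pendrin cells, 3 were at least 2-fold lower in Slc26a4-/- (Anxa1, Anxa3 at -3.57 and Anxa5 at -1.13) and 0 higher, beside 22.5% and 15.1% of 10414 genes. In Slc26a4+/- it was 3 lower (Anxa1, Anxa3 and Anxa4) and 0 higher, beside 28% and 19.1%. All 8 Slc26a4+/- pendrin cells were in batch 4, where their Anxa1 log2 difference from WT was -0.51. That difference was -0.99 over collection days and -0.98 with SC-like and RC-like differences given equal weight, so none of these values reached 2-fold. Settings that used WT cells of all batches without this weighting were past 2-fold. They ran from -4.28 (mean of log2 CPM plus 1 over cells) to -1.40 (totals without the 50 highest genes). Anxa5 passed 2-fold in the pooled cells and in neither cell type on its own, where its difference was -0.75 (SC-like) and 0.84 (RC-like).

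IMC-like cells, the pigmented cells of the SV that do not express pendrin, had a different annexin pattern. Here Anxa2 averaged 201.8 CPM in 27 Slc26a4-/- against 101.96 CPM in 40 WT cells (log2 difference 0.98), and the median cell 175.2 CPM against 3.60 CPM. In batch 4 the 3 Slc26a4-/- days stood at 299, 293.96 and 417 CPM, above the 3 WT days at 0.507, 142.3 and 87.2 CPM and the 4 Slc26a4+/- days at 0.795, 183.1, 88.7 and 147.4 CPM. In batch 2 the 5 Slc26a4-/- days stood at 80.3, 54.98, 115.8, 385 and 96.1 CPM, and the 3 WT days at 107.6, 13.7 and 0 CPM, with an overlap. The highest WT day of all, in batch 1, which held no Slc26a4-/- IMC-like cell, stood at 458 CPM. The difference was near 2 log2 units within each batch (1.90 and 1.96). Over the 14 days of both batches the exact permutation p was 0.00357 of 1120 arrangements, and the p adjusted over all genes was 0.150. At an unadjusted p under 0.05, 14.1% of genes were higher and 1.90% lower by the same test, and 0 genes passed after adjustment. By that test, genes were more often higher than lower, whereas by the ratio of pooled means 17.5% of genes were at least 2-fold lower and 12.7% higher. In batch 2, 2 collection numbers held IMC-like cells of both genotypes, and Anxa2 was 80.3 and 115.8 CPM in Slc26a4-/- against 13.7 and 0 CPM in WT cells of the same number.

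**Figure D4:**
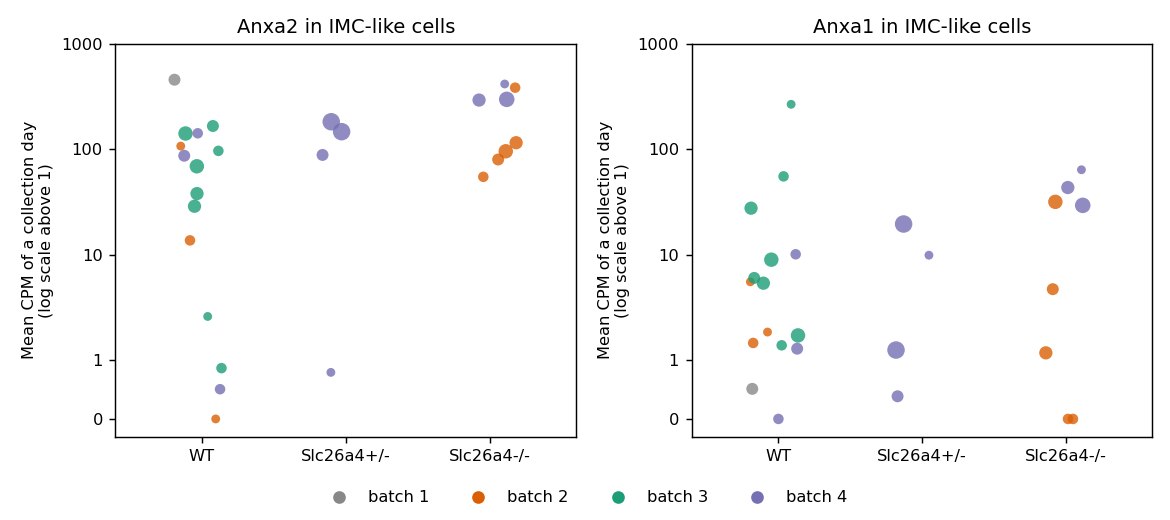
Mean CPM of Anxa1 and Anxa2 in IMC-like cells for each collection day (points, coloured by batch and larger for more cells), by genotype, on a scale that is logarithmic above 1. In batch 4 the 3 Slc26a4-/- days of Anxa2 (293.96 to 417 CPM) lay above the WT and Slc26a4+/- days.

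Anxa1 in IMC-like cells averaged 21.98 CPM in Slc26a4-/- and 15.6 CPM in WT cells (log2 difference 0.47), at 1.76 and 3.12 within batches 2 and 4. With each day given equal weight on the log2 scale the batch 2 difference was -0.11, and that of batch 4 was 3.92. Its Slc26a4-/- days of batch 4 were 29.5, 43.5 and 64.2 CPM against WT days of 0, 10.1 and 1.29 CPM, but the single highest day was a WT day of batch 3, with 1 cell, at 267.99 CPM. Over days of batches 2 and 4 the exact permutation p was 0.141 and the adjusted p 0.445. The pooled mean of Anxa1 was thus on the higher side here, at a level far under that of SC-like cells, while the median cell was at 0.868 CPM in Slc26a4-/- and 2.03 CPM in WT.

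Across the family in IMC-like cells, 1 of 8 annexins was at least 2-fold lower in Slc26a4-/- (Anxa11, 31.5 against 68.3 CPM, -1.09) and 1 at least 2-fold higher (Anxa3, 10.98 against 0.163 CPM, 3.36), beside 17.5% and 12.7% of 9485 genes. The Anxa3 mean came from 3 cells with 10 or more counts. Anxa4 (0.50), Anxa6 (0.39), Anxa7 (0.38) and Anxa5 (-0.21) stayed within 2-fold. In Slc26a4+/- cells 0 of 7 passed 2-fold in either direction, beside 18.4% lower and 11.3% higher. The pericyte list summed to 463 CPM in Slc26a4-/- and 72.2 CPM in WT IMC-like cells, nearly all of it Cspg4 (463 and 70.6 CPM), while the defining pericyte genes Pdgfrb, Kcnj8 and Notch3 were at or near 0 CPM. The 10 SC markers summed to 16.6 CPM in Slc26a4-/- (0.355 to 72.7) and 83.6 CPM in WT IMC-like cells (0.183 to 527). The part of these markers in the annexin levels was not tested.

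MC-like cells, the potassium-secreting layer of the SV, were few, with 14 WT, 2 Slc26a4+/- and 5 Slc26a4-/- cells. Anxa1 averaged 108.6 CPM in Slc26a4-/- and 37.6 CPM in WT cells (log2 difference 1.51), but 3 of the 5 cells had no count. Anxa11 averaged 74.9 against 21.7 CPM (1.74). These were 2 of 7 annexins at least 2-fold higher, and 0 were lower, beside 26.1% and 26.4% of 9048 genes. In Slc26a4+/- cells Anxa7 and Anxa11 were at least 2-fold higher and 0 lower, beside 25% and 39.6%. No WT MC-like cell was in batch 4, which held both Slc26a4+/- cells and 3 of the 5 Slc26a4-/- cells. Batch and genotype therefore cannot be told apart for those cells. Across the 4 named groups the annexin share of counts was lower in Slc26a4-/- than in WT cells only in the SC-like group.

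The other annexin genes differed from the 8. Anxa8, Anxa10 and Anxa13 had no count in any cell. Anxa9, an annexin whose core binds calcium poorly, was the only one with a higher mean in Slc26a4-/- than in WT cells when SC-like and RC-like cells were pooled. In RC-like cells it averaged 324 CPM in Slc26a4-/-, 136.8 CPM in Slc26a4+/- and 52.7 CPM in WT, and 12 of 14, 3 of 6 and 3 of 17 cells had at least 10 counts. In SC-like cells it averaged 182.7 CPM in Slc26a4-/- and 35.1 CPM in WT, but the collection day at 24 days stood at 1.21 CPM and that at 29 days at 291.6 CPM, and 1 of 8 cells was above every WT cell. The log2 difference in RC-like cells was 2.597, and 8.79 and 1.49 within batches 2 and 4, where batch 2 held 1 WT RC-like cell. Over days in pooled pendrin cells the difference was 5.06, with an exact permutation p of 0.0190 over 315 arrangements and an adjusted p of 0.863. In IMC-like cells the means were 27.7 CPM in WT and 0.698 CPM in Slc26a4-/-, but the WT mean came from 3 days of batch 3 (100.3, 135.8 and 107.4 CPM), which held no Slc26a4-/- cell. In batches 2 and 4 no IMC-like day of WT was above 2.29 CPM and none of Slc26a4-/- above 3.12 CPM.

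Genes whose level followed Anxa1 closely over all WT cells were, by Pearson's r of log2 CPM plus 1 among 10218 genes, Wfdc18 (0.79), Kif19a (0.74), Sbspon (0.72), Krt8 (0.71), P2rx2 (0.70), Nov (0.70), Thsd4 (0.68), Krt18 (0.68) and Ltbp1 (0.67). Wfdc18, Kif19a, Krt8, P2rx2 and Krt18 are among the SC markers. Across cell types, therefore, Anxa1 followed the SC-like identity. Cells differ in depth and share batches, so r is given as a description only. The nearest genes were Epcam, Lect1 and Capg for Anxa2 (0.71 for Epcam), Lpcat2, Nov and Chrnb1 for Anxa3, and Bcl2l1, Ppp2r1a and Actg1 for Anxa4. For Anxa5 the nearest gene was Anxa1 itself (0.55), then Wfdc18 and Krt8. For Anxa6 they were Rbm47, St14 and Ccni, for Anxa7 Prrg4, Anxa1 and Cldn8, and for Anxa11 Apmap, Atg5 and Wdyhv1.

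Within the 21 WT SC-like cells of at least 100000 counts, where the cell type is held fixed, Anxa1 still varied with Anxa5 (r = 0.67) and Anxa2 (r = 0.56), less with Anxa4 (0.39), and not in the same sense with Anxa6 (-0.14) or Anxa3 (-0.12). By rank (Spearman's rho) Anxa1 stood at 0.60 with Anxa5 and 0.48 with Anxa2. The r with the total count was 0.35 for Anxa1, 0.51 for Anxa2 and 0.08 for Anxa5. Some cells share a collection day, so differences between days are included. Anxa1 and Anxa5 thus varied together over these WT cells. In Slc26a4-/- SC-like cells Anxa1 made up 11.6% and Anxa5 55.8% of annexin CPM, against 28.7% and 48.7% in WT.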

How the data were processed

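Single SV cells were read by Smart-Seq2, and the authors estimated transcript abundance with kallisto on GRCm38 (version not given in the sources used here). The deposited gene table held estimated counts, rounded to whole numbers, for 47752 genes. Deposited per-cell files gave estimated counts and TPM per transcript for 98492 transcripts. The 17 columns that matched no sample label were not used. Counts were divided by the cell total to give CPM. TPM was summed per gene over GENCODE names, which left out 1376 transcripts (median 0.691% of counts) and gave TPM for 30736 genes.

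The 8 members and all lists were chosen with earlier results of these data known. Cells were clustered in Seurat 5.3.0 (R 4.3.3) without 541 genes, among them the annexins, the partner lists and the study's genotype genes. Clusters took a name if 1 marker list had the top score in 80% or more of their cells and the leading genes did not contradict it. Several SC, RC and MC markers were cluster genes that the study chose on these cells. In all, 36 cells had 2 marker scores within 0.25, and 176 of the 178 named cells scored highest for the type of their cluster. No cell was filtered and no doublet caller was run, since cells were picked singly.

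Genotypes were compared as log2 of mean CPM plus a pseudocount of 1, over genes with a mean of at least 10 CPM in either genotype, which understates the change of low genes. Called means past 2-fold. Collection days were taken from the names of the libraries, and 2-sided exact permutation tests over days, with days exchanged within batches 2 and 4 and p-values adjusted over all genes (Benjamini-Hochberg), were run as an alternative (Python 3.11.15, scipy 1.17.1). The steps were tested on simulated data. Named genes were the 8 members, the other annexins, the 10 genes nearest to Anxa1 and 3 nearest to each other member by Pearson's r over WT cells, and those of 6 partner lists past 2-fold. Of the genes nearest to Anxa1, 1 is not reported here. Marker genes and collection-day values were named after their values were seen.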

Additional observations from a re-analysis of the deposited data

Results flagged for a closer look

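Collection days of 1 genotype and cell type were compared in 40 sets of 4 to 10 days for genes of at least 10 CPM. In 9 sets a day lay far from the others. The cut-off marks about 1 set in 20 for independent, normally distributed days. Days of a single cell at or near 0 CPM are not such values, so 9 of 40 cannot be set against that rate. Each flagged day held a single cell and was the lowest, and some cells were flagged for several genes. In IMC-like Slc26a4+/- cells, 1 cell of 28 days had 0.795 CPM of Anxa2 (other days 88.7 to 183.1), 0.0 CPM of Anxa6 (229.4 to 532) and 0.397 CPM of Anxa7 (77.2 to 147.6). In MC-like WT cells, 1 cell of 32 days had 0.408 CPM of Anxa2 (36.8 to 521) and 0.816 CPM of Anxa5 (100 to 1486), and 1 cell of 40 days had 0.0 CPM of Anxa6 (341 to 1501). In MC-like Slc26a4-/- cells, 1 cell of 44 days had 1.29 CPM of Anxa4 (176.7 to 275.7). In RC-like Slc26a4-/- cells, 1 cell of 25 days had 0.0 CPM of Anxa2 (185.1 to 1572) and 2.15 CPM of Anxa6 (96.4 to 601).

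The Slc26a4-/- against WT difference of Anxa6 had opposite signs over batch 2 days in SC-like cells (-0.98 and -0.02 for the 2 days) and MC-like cells (4.07 and 5.91), a gap of -5.49 on the log2 scale. The MC-like WT days included the cell at 0.0 CPM, and the difference between cell types was not tested.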

How the results depend on the processing

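No paired analysis was possible because no label pairs samples and the numbers in the sample names are not shared between genotypes. Days of batch 2 that share a collection number are compared as values, without a test. Of 170 alternative values, 25 moved (3 values by more than their spread and 22 counts by over 1.5 times). None turned a called value's direction. The spread was the SD of log2 day means of WT cells. For Anxa1 this SD was 5.29 with pendrin cells pooled, 1.46 for RC-like cells and 0.99 for SC-like cells. Pooled Slc26a4-/- values from -6.83 to -1.07 (main value -2.90) thus counted as unmoved. So did pooled Slc26a4+/- values from -4.28 to -0.51 (main value -1.43). With so wide a spread, the tally cannot show that the pooled values are stable. Anxa1 in SC-like cells (-2.25) ran from -2.80 to -1.84 over 20 alternatives, including 4 chosen after seeing the data (WT cells no older than the oldest mutant, -2.23; without either mutant collection day, -2.18 and -2.37; relative to other SC markers, -1.84). Anxa1 in RC-like cells (0.11) was -2.67 with cell types set by marker score and -2.35 in batch 4. Anxa1 in pendrin cells was -10.54 in batch 4, which held no mutant SC-like cell. Annexins at least 2-fold lower in mutant pendrin cells (3) numbered 1 with marker-score types, 7 from pooled counts, 5 in batch 4 and 6 over collection days, and those higher (0) numbered 1 in batch 2 and 1 by the mean of batches. In SC-like cells those lower (2, a count added after seeing the data) numbered 1 with marker-score types and 1 by mean log2, and 3 in batch 2, by the mean of batches and over days. In IMC-like cells those lower (1) numbered 0 with marker-score types, 15 principal components, a pseudocount of 10 CPM or mean log2. Those higher (1) numbered 2 with no gene left out of clustering, 15 components, TPM, totals without the 50 highest genes, pooled counts or batch 4 alone, 3 by mean log2 or the mean of batches, 4 in batch 2 and 5 over days. The counted gene changed too, being Anxa2 and not Anxa3 with marker-score types or without the highest cell of each genotype. Anxa3 was also not counted with 15 components, pooled counts, mean log2, batch 4 alone or over days. The causes were not tested. From 7 to 8 annexins were highest in SC-like cells in every setting. Batch 4 gave no value for mutant SC-like cells and batch 2 none for Slc26a4+/-. Cells of a genotype may share a mouse, so the spread between days may be technical, and depth limits the genes near 10 CPM most.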

Other observations

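Outside the named groups, the second unnamed cluster, led by Crhbp, Slc26a7 and Vmo1, was richer in annexins than any named group but the SC-like one. In its 11 WT cells the mean was 1815 CPM for Anxa5, 697 CPM for Anxa6, 537 CPM for Anxa2, 91.04 CPM for Anxa4, 89.2 CPM for Anxa1 and 162.9 CPM for Anxa9. The 8 annexins took 0.341% of counts in WT, 0.737% in 4 Slc26a4+/- and 0.661% in 2 Slc26a4-/- cells of this cluster. Anxa1 made up 2.62%, 3.67% and 11.4% of these shares, so its mean was higher than in WT in these few cells. In the first unnamed cluster, of which 74.4% of cells scored highest for IMC markers, the 8 annexins took 0.130% of counts in 67 WT and 0.144% in 13 Slc26a4-/- cells. In MC-like cells the Anxa6 cassette exon was in 69.8% of the TPM of both forms in WT and 49.9% in Slc26a4-/- cells, the latter from 3 cells with at least 10 counts.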
